A study of Mus musculus with 12 samples.

Results

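The PIWI genes of the mouse, Piwil1 (which codes for MIWI), Piwil2 (MILI) and Piwil4 (MIWI2), were followed in total RNA and in ribosome footprints of testes with and without Maelstrom. They were taken by symbol, from the gene rows of the count table, and they were 3 of its 20620 genes. The libraries came from whole testes of C57BL/6 mice at postnatal day 16. One genotype was Mael+/-, which carries 1 mutant and 1 intact Mael allele and served as the control, and the other was Mael-/-, which carries the mutation on both alleles in every cell. Each genotype gave 3 biological replicates, and each extract, prepared with cycloheximide to hold ribosomes in place, gave 1 library of rRNA-depleted total RNA and 1 library of fragments protected from micrococcal nuclease. This made 12 libraries in 4 groups of 3. The labels do not say how many animals went into an extract.

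PIWI proteins are the Argonaute relatives of the germline. They carry PIWI-interacting RNAs (piRNAs), short guides with which they cut matching transcripts in the cytoplasm or direct DNA methylation to transposons in the nucleus. In mouse male germ cells MILI is present from fetal life onward, MIWI2 acts in the nuclei of fetal and newborn prospermatogonia, and MIWI appears in pachytene spermatocytes and persists into round spermatids, where it binds the pachytene piRNAs. Maelstrom works in the same pathway. At day 16 the first wave of spermatogenesis has brought the leading germ cells into meiotic prophase.

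In the GENCODE M21 annotation of GRCm38, Piwil1 lies on the plus strand at chr5:128702524-128755474, with 20 coding exons and a longest open reading frame of 862 codons. Piwil2 lies on the minus strand at chr14:70372477-70429383, with 22 coding exons and 971 codons. Piwil4 lies on the minus strand at chr9:14696230-14740733, with 19 coding exons and 878 codons. Annotated transcripts on the opposite strand overlap Piwil1 (4930553I04Rik) and Piwil4 (Gm10706 and Gm15586), and small structural RNA genes lie inside Piwil2 (Gm22725 and Gm24890). None of these has a row in the count table. The overlaps are of whole gene spans, and whether they reach counted exons was not examined. The RNA libraries were made with a stranded kit, but the strand setting of the counting was not given in the sources used here. Reads of an opposite transcript in a shared exon could therefore have been counted for Piwil1 or Piwil4 in the RNA libraries.

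Promoters of Piwil1 and Piwil4 are shown because Mybl1 (A-MYB) and Tcfl5, transcription factors of pachytene piRNA genes, were measured in the same libraries. They come from RefSeq on GRCm38.p6, each from 250 bases before to 50 bases after an annotated start, written 5′ to 3′ on the strand of the gene. Capitals mark matches to the MYB hexamers, searched on either strand: the hexamer CAACGG, its variant with T in place of the inner G, CAACTG, and the same with T as the first base, TAACGG or, with both differences, TAACTG. No base was shared by more than 1 match.
Piwil1, chr5:128735996-128736295, plus strand: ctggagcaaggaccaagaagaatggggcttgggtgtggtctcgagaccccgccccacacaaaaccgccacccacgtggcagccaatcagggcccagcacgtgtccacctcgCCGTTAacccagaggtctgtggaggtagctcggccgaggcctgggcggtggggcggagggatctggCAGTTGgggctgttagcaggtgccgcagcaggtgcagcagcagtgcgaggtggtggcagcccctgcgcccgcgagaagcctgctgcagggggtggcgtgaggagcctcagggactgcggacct
Piwil4, chr9:14740623-14740922, minus strand: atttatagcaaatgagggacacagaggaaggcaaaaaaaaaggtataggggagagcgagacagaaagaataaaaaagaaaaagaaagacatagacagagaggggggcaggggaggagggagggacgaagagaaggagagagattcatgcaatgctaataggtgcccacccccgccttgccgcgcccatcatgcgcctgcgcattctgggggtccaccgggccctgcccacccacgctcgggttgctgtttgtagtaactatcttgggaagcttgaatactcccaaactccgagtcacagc
The Piwil1 window, whose start site lies inside the wider GENCODE span, held 2 hexamers, both read on the strand opposite to the gene, CCGTTA at -139 and CAGTTG at -73 from the start. The Piwil4 window held none. Among 32851 promoter windows of the same length in the table, 28.3% held at least 1 of these hexamers and 5.09% held 2 or more. The Piwil1 window had 18 CpG dinucleotides against 11 for Piwil4 and a median of 7 over all windows, and 67.7% of its bases were G or C against 52.7%. A second Piwil4 start is annotated at chr9:14718338-14718637, and that window had 0 CpG dinucleotides and 0 hexamers. Piwil2 was not matched in this table.

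Gene totals ranged from 13697267 to 27462358 counts in the RNA libraries and from 7609932 to 13233565 in the footprint libraries. Mael, counted 3800 to 5045 times in the Mael+/- RNA libraries, had 1, 2 and 0 counts in the Mael-/- RNA libraries, a level at least 1097-fold lower when each Mael-/- library is set to a floor of 3 counts. Its footprints numbered 660 to 1294 in Mael+/- and 0, 0 and 7 in Mael-/-. The labelled tissue was checked against markers: all 11 Sertoli cell, 8 Leydig cell and 12 spermatogonial markers were counted in every library, and 3 to 7 of 10 round spermatid markers were at 0 in each library, with the spermatid genes Prm1 and Tnp2 (named after their values were seen) at 0 in all 12 and Crem the highest, at 22.3 CPM in Mael+/- RNA. The Mael+/- extract numbered 1 stood apart from the other Mael+/- extracts in both assays, and values without it are given beside the results it moves most.

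Piwil1 was the PIWI gene that varied most, and it varied in both assays alike. Its levels are in CPM, counts scaled to a common library size with TMM factors, which align the bulk of the genes between libraries. In RNA the Mael+/- libraries 1, 2 and 3 had 78.9, 10.96 and 13.9 CPM, and the Mael-/- libraries had 8.03, 8.08 and 6.80 CPM. In footprints the Mael+/- libraries had 107.5, 14.97 and 20.9 CPM, and the Mael-/- libraries had 8.79, 11.3 and 10.9 CPM. Every Mael+/- library was therefore above every Mael-/- library in both assays, with Mael+/- library 1 far above the rest and the lowest Mael+/- value 1.36-fold (RNA) and 1.33-fold (footprints) above the highest Mael-/- value. Such a separation with lower values in Mael-/- was found for 5.67% of the genes tested in RNA, for 4.87% in footprints and for 1.4% in both assays at once.

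The mean of Piwil1 RNA was 34.6 ± 38.4 CPM (SD, n = 3) in Mael+/- and 7.64 ± 0.724 CPM in Mael-/-, a ratio of 4.53. In footprints the means were 47.8 ± 51.8 and 10.3 ± 1.34 CPM, a ratio of 4.63. The SD in Mael+/- exceeded its mean, since extract 1 held 6.34 times the RNA and 6.00 times the footprints of the mean of the other Mael+/- extracts. Without extract 1 the ratios of the genotype means were 1.63 in RNA and 1.74 in footprints, so 1 extract carried most of the difference in size, while the direction stayed.

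In edgeR's quasi-likelihood test over all genes, with Benjamini-Hochberg adjustment, the log2 fold change of Piwil1 RNA (Mael-/- over Mael+/-) was -2.18 (SE 0.65, 95% interval -3.64 to -0.72) and the adjusted p was 0.722. For Piwil1 footprints it was -2.22 (SE 0.62, interval -3.58 to -0.87) and the adjusted p was 0.747. Neither passed the adjusted threshold of 0.05. Piwil1 ranked 155th of 14685 genes by p in RNA and 76th of 13500 in footprints. Without the Mael+/- library 1 the estimate was smaller and tighter: -0.71 in RNA (SE 0.16, interval -1.05 to -0.37, adjusted p = 0.0774 in edgeR) and -0.82 in footprints (SE 0.18, interval -1.21 to -0.42, adjusted p = 0.192 in edgeR).

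**Figure D1:**
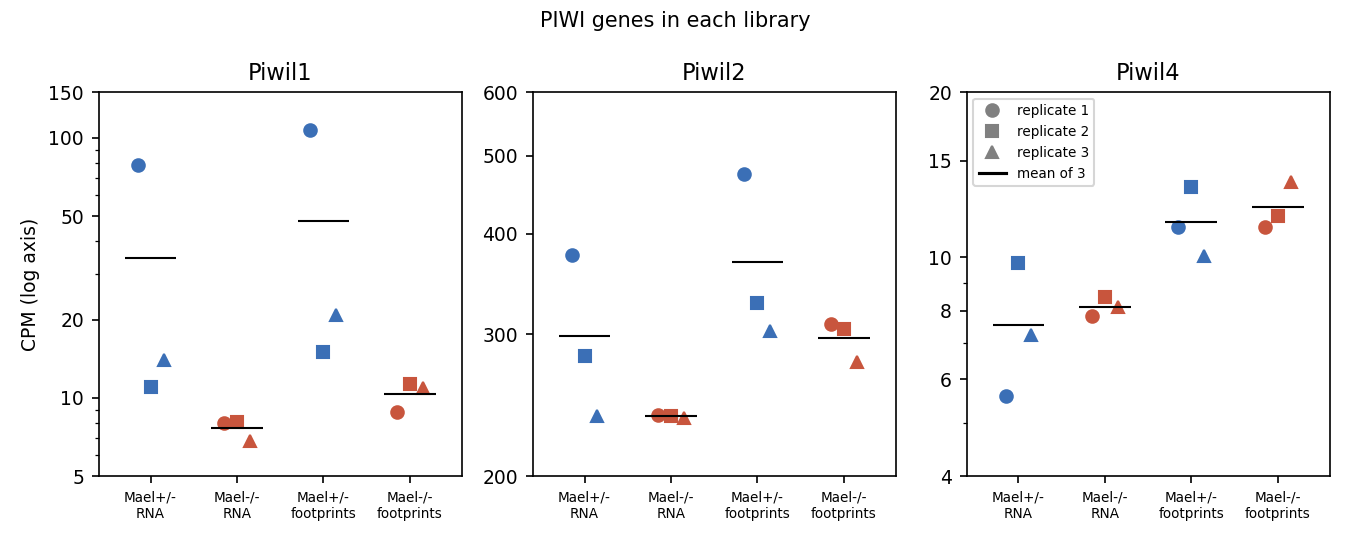
CPM of Piwil1, Piwil2 and Piwil4 in each of the 12 libraries on log axes (blue Mael+/-, red Mael-/-, symbols for the replicate, black lines for the mean of 3). Piwil1 in Mael+/- replicate 1 reaches 78.9 CPM in RNA and 107.5 CPM in footprints, and the 3 Mael-/- values of Piwil1 lie below all Mael+/- values in each assay.

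Piwil2, the most abundant PIWI transcript, differed far less between genotypes. The Mael+/- RNA libraries 1, 2 and 3 had 376, 282 and 238 CPM and the Mael-/- libraries had 238, 237 and 236 CPM. In footprints the values were 474, 328 and 303 CPM in Mael+/- and 309, 305 and 277 CPM in Mael-/-. The genotypes overlapped in both assays: the highest Mael-/- library was just above the lowest Mael+/- library, and Mael+/- library 1 was again the highest. The coefficient of variation of Piwil2 RNA was 0.515% in Mael-/- against 23.7% in Mael+/-, library 1 included.

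The log2 fold change of Piwil2 was -0.33 in RNA (SE 0.14, interval -0.66 to -0.01, adjusted p = 0.91 in edgeR) and -0.31 in footprints (SE 0.15, interval -0.65 to 0.03, adjusted p = 0.998 in edgeR). Without Mael+/- library 1 it was -0.13 and -0.09. Most of the small difference in the means therefore went with that library.

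Piwil4 showed no separation of the genotypes. Its Mael+/- RNA libraries had 5.60, 9.79 and 7.24 CPM, and its Mael-/- libraries had 7.82, 8.48 and 8.11 CPM. The footprint libraries had 11.4, 13.4 and 10.1 CPM in Mael+/- and 11.4, 11.9 and 13.7 CPM in Mael-/-. Here Mael+/- library 1, the highest for Piwil1 and Piwil2, was the lowest RNA library. The log2 fold changes were 0.11 in RNA (SE 0.20, interval -0.35 to 0.56, adjusted p = 0.985 in edgeR) and 0.09 in footprints (SE 0.16, interval -0.27 to 0.44, adjusted p = 0.998 in edgeR). Piwil4 was counted only 103 to 267 times in a library.

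None of the 3 PIWI genes was called at an adjusted p under 0.05 in any contrast. Of all genes tested with edgeR, 0.116% were called in RNA, 0.0593% on the footprint side and 0% for translation efficiency. At an unadjusted p under 0.05, 2 of the 3 members passed in RNA (Piwil1 and Piwil2) and 1 in footprints (Piwil1), where 5.41% and 4.33% of all genes tested did. DESeq2 on the same libraries also called 0 members, with adjusted p = 0.619 for Piwil1 in RNA and 0.856 in footprints.

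**Figure D2:**
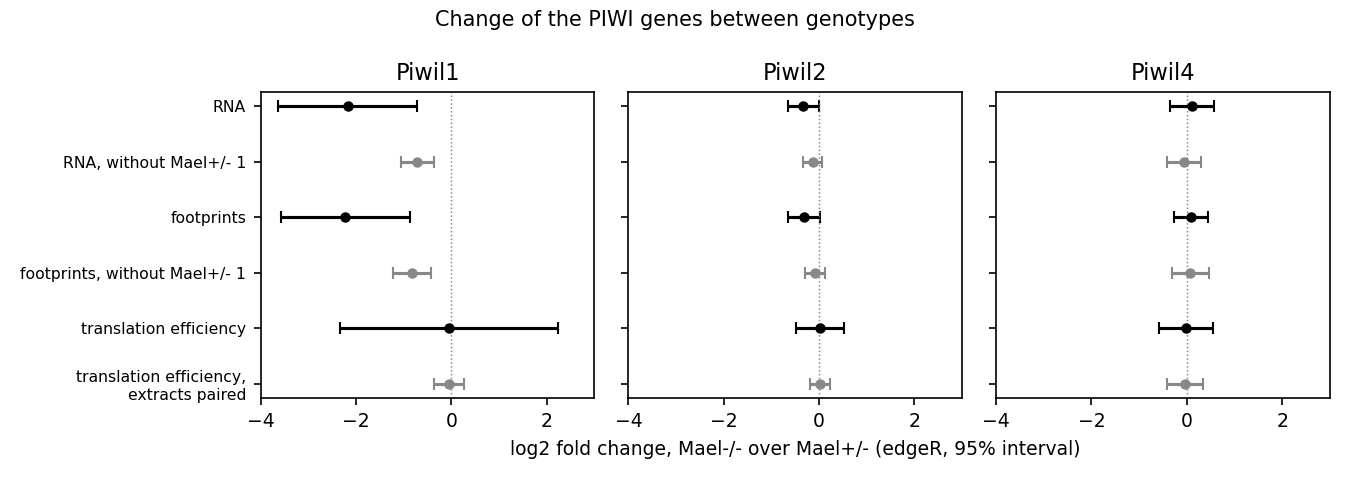
Estimated log2 fold change (Mael-/- over Mael+/-) of each PIWI gene, with a 95% interval derived from the edgeR test. Black marks either assay and translation efficiency. Grey marks the same contrasts without Mael+/- replicate 1 or with the 2 libraries of an extract paired. Without that replicate the Piwil1 estimate is -0.71 instead of -2.18 for RNA, and -0.82 instead of -2.22 for footprints, and the paired interval of translation efficiency is the narrower one for all 3 genes.

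Translation efficiency was taken as footprint CPM over RNA CPM of the same extract. For Piwil1 it was 1.36, 1.37 and 1.497 in the Mael+/- extracts and 1.09, 1.40 and 1.6003 in the Mael-/- extracts, so the extract with the most Piwil1 RNA had a ratio like the others. Piwil2 had 1.26, 1.17 and 1.28 in Mael+/- and 1.30, 1.28 and 1.18 in Mael-/-, and Piwil4 had 2.03, 1.37 and 1.39 in Mael+/- and 1.45, 1.40 and 1.69 in Mael-/-. The genotypes overlapped for all 3 genes.

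A change of footprints beyond that of RNA was tested with edgeR as an interaction term in a fit of the 12 libraries together. The log2 estimate was -0.04 for Piwil1 (SE 1.07, interval -2.33 to 2.24), 0.02 for Piwil2 (SE 0.24, interval -0.49 to 0.52) and -0.02 for Piwil4 (SE 0.27, interval -0.59 to 0.55). The fit called 0 of 13448 genes, with 52 (0.387%) at an unadjusted p under 0.05, and DESeq2 called 0, with 28. Both libraries of an extract came from aliquots of the same lysate, and with the extract as a block the intervals narrowed to -0.37 to 0.27 for Piwil1, -0.18 to 0.22 for Piwil2 and -0.41 to 0.34 for Piwil4, with 0 genes called and 276 at an unadjusted p under 0.05. Per length of coding sequence and of exons, the ratio put Piwil1 at percentiles 42.6 to 69.0 of all genes over the 6 extracts, Piwil2 at 55.2 to 62.0 and Piwil4 at 63.7 to 83.6.

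To compare levels between the genes, CPM was divided by the exon length in kb for RNA and by the coding length in kb for footprints. Piwil2 led in every library of both assays. In RNA it had 56.5 ± 13.4 CPM per kb in Mael+/- and 44.9 ± 0.231 in Mael-/-, which placed it at percentiles 91.2 and 87.9 of 14009 genes. Piwil1 followed in Mael+/- with 7.94 ± 8.81 CPM per kb (2.86 without library 1), percentile 45.7, and had 1.75 ± 0.166 CPM per kb in Mael-/-, percentile 22.5. Piwil4 had 1.43 ± 0.401 and 1.55 ± 0.0629 CPM per kb, percentiles 19.9 and 21.1.

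In footprints per kb of coding sequence the order was the same in Mael+/-, with 127 ± 31.7 for Piwil2, 18.0 ± 19.6 for Piwil1 (6.77 without library 1) and 3.86 ± 0.564 for Piwil4. In Mael-/- the values were 102 ± 5.92 for Piwil2, 3.90 ± 0.505 for Piwil1 and 4.09 ± 0.412 for Piwil4. Piwil1 and Piwil4 thus did not differ beyond their spread in Mael-/- footprints. In Mael-/- RNA their library ranges overlapped too, and the order of Piwil1 and Piwil4 depended on the length used: per kb of the longest transcript the means were 1.90 for Piwil1 and 2.46 for Piwil4. On that length Piwil1 was also below Piwil4 in Mael+/- RNA library 2, at 2.73 against 2.96 CPM per kb.

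Each PIWI gene's share of the summed PIWI level per kb was taken within a library. Piwil2 made up 92.4% and 90.8% of the PIWI RNA level in Mael+/- libraries 2 and 3 and 92.8% to 93.5% in Mael-/-, but 78.8% in Mael+/- library 1, where Piwil1 took 20.1%. In the other Mael+/- RNA libraries Piwil1 made up 4.36% and 6.47%, and in Mael-/- 3.27% to 3.83%. Footprint shares of Piwil1 were 19.6%, 4.60% and 6.84% in Mael+/- and 2.93%, 3.78% and 3.96% in Mael-/-. Those of Piwil4 were 1.82%, 3.63% and 2.89% in Mael+/- and 3.34%, 3.50% and 4.39% in Mael-/-, so in Mael-/- footprint libraries 1 and 3 Piwil4 had the larger share of the pair. This order depended on the length used. With the longest coding sequence Piwil4 also led in Mael-/- footprint library 2 (3.98% against 3.85%). With the longest transcript Piwil4 led in Mael-/- RNA libraries 1, 2 and 3 (4.48%, 4.85% and 4.71% against 3.79%, 3.80% and 3.25%).

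A ratio of 2 genes inside a library does not depend on library scaling. Piwil1 counts were 21.0%, 3.89% and 5.88% of the Piwil2 counts in the Mael+/- RNA libraries and 3.39%, 3.41% and 2.89% in Mael-/-. The mean log2 ratio was -3.67 ± 1.27 in Mael+/- and -4.96 ± 0.13 in Mael-/- (n = 3 each), a difference of -1.28, with p = 0.1 in a two-sided exact permutation test, the smallest p that 3 against 3 allows. In footprints the difference was -1.36, again with exact p = 0.1. The genotypes did not overlap in this ratio in either assay, and without Mael+/- library 1 the differences were -0.57 and -0.69. For Piwil4 against Piwil2 the differences were 0.45 in RNA and 0.38 in footprints, each with exact permutation p = 0.3, and the genotypes overlapped.

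Across extracts, Piwil1 moved with markers of pachytene spermatocytes, the cells that express it. In bulk tissue, fewer cells of a type and less RNA per cell cannot be told apart. The summed level of the 14 other pachytene markers in RNA was 943, 399 and 412 CPM in Mael+/- and 327 to 367 CPM in Mael-/-, and in footprints 359 to 1003 CPM and 297 to 339 CPM. The extract with the most Piwil1 was therefore also the one with the most pachytene marker RNA, and the Mael-/- libraries lay below all Mael+/- libraries on both counts. Of these markers, of which Mybl1 and Tcfl5 are also piRNA pathway genes, 11 could be tested in RNA and 9 in footprints, and 0 were called. All had log2 fold changes below 0, where 52.3% and 52.5% of all genes did. The medians were -1.08 and -0.88 against -0.01 for all genes in each assay. In the fits that left out Mael+/- library 1, 10 of 11 and 8 of 9 were below 0, with Mybl1 at 0.13 and 0.20. Without Mael+/- library 1 the medians were -0.44 and -0.44, and 2 of 11 markers fell in RNA by edgeR, where 0.155% of all genes were called lower in that fit: Hspa2, a testis heat shock protein (log2 fold change -0.44, SE 0.09, adjusted p = 0.0485 in edgeR), and Adam2, a sperm surface protein (-1.96, SE 0.28, adjusted p = 0.00273 in edgeR). The part of cell composition in the Piwil1 values was not tested.

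The size of the excess in Mael+/- extract 1 differed between genes. In RNA this extract held 2.70 times the Hspa2 of the other Mael+/- extracts, 6.34 times the Piwil1 and 1.45 times the Piwil2. The lactate dehydrogenase of spermatocytes, Ldhc, was at 10.3 times and Adam2 at 7.42 times (both genes chosen after their values were seen). Some pachytene markers were raised less or not at all. Mybl1 was at 1.89 times, Tcfl5 at 1.61, Tbpl1 at 1.26 and Ovol1 (also chosen after its value was seen) at 0.976. The median gene stood at 0.991. Only 45 of 14679 genes in RNA and 24 of 13499 in footprints had a larger ratio than Piwil1. Markers of early meiotic prophase were also highest in this extract, at 3404 CPM summed in RNA against 1639 and 1787 CPM in the other Mael+/- extracts, but they did not separate the genotypes, since Mael-/- had 1623 to 2225 CPM. Sertoli cell markers had 1887 to 2036 CPM summed over the 6 RNA libraries, and in footprints they were lowest in this extract, at 2517 CPM against 2890 to 3157 CPM in the other extracts.

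**Figure D3:**
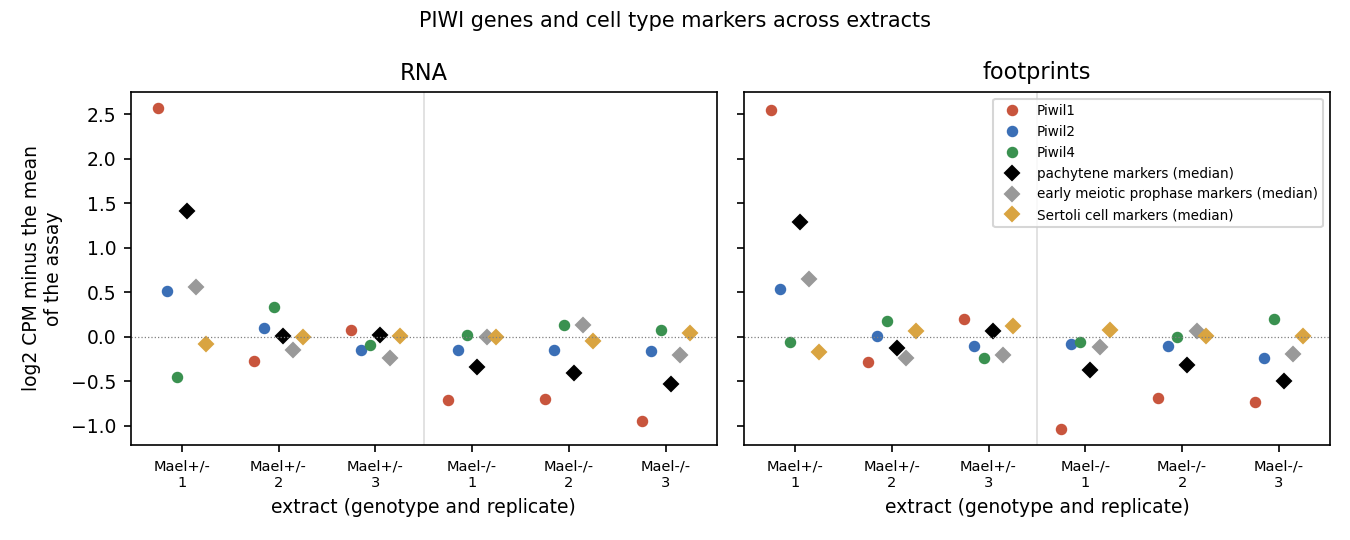
Log2 CPM minus the mean of the assay for Piwil1, Piwil2 and Piwil4 (circles) and the median of 3 marker lists (diamonds, Piwil1 left out of its list) in each extract, for RNA and footprints. Piwil1 and the pachytene median are both highest in Mael+/- extract 1 and lowest in the 3 Mael-/- extracts, while Piwil2 and Piwil4 in Mael-/- lie between -0.24 and 0.20.

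Median differences of the markers of spermatogonia, Sertoli cells and Leydig cells were small. Over 12 spermatogonial markers the median log2 fold change was -0.04 in both RNA and footprints, over 11 Sertoli cell markers -0.01 and 0.01, and over 8 Leydig cell markers 0.01 and -0.02. Single Leydig cell markers ran from -0.34 to 0.77 in RNA. The 7 macrophage markers had medians of 0.30 and 0.27, with 0 of 7 below 0 in either assay, where 52.3% and 52.5% of all genes were. The genotypes overlapped, as the summed level was highest in Mael+/- library 3. It was 250 CPM there in RNA (235 to 238 in Mael-/-) and 321 CPM in footprints (256 to 310 in Mael-/-). Without Mael+/- library 1 the macrophage medians were 0.23 and 0.16, with 1 of 7 below 0 in each assay. The 16 early prophase markers had medians of -0.15 and -0.25, which became 0.17 and 0.10 without Mael+/- library 1. Of 10 round spermatid markers only 3 passed the count filter in RNA and 2 in footprints, with medians of 0.06 and -0.14. None of these lists had a gene called.

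Partners in the piRNA pathway were given by a list of 28 genes: transcription factors, processing enzymes, tudor proteins, cofactors and genes of nuclear silencing. Of these, 26 had a row in the table (Dnmt3c and Spocd1 were not matched), and all 26 were tested. One was called, Mael itself, lower in both assays. The log2 fold change was below 0 for 23 of 26 in RNA and 24 of 26 in footprints, where 52.3% and 52.5% of all genes were. The medians were -0.19 and -0.24. Mael, whose fall was set by the mutation, is among the 26 in all these counts and medians. Without Mael+/- library 1 the counts were 17 and 13 of 26 and the medians -0.03 and -0.01. The shift of the partners thus went mostly with that extract. So did most of the Piwil1 difference, at -2.18 in RNA and -0.71 without that library. Its sign was the same in both settings, as were those of the partner medians.

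Among the transcription factors of pachytene piRNA genes, Mybl1 had 86.0 CPM in Mael+/- RNA and 72.6 CPM in Mael-/- (log2 fold change -0.24, adjusted p = 0.983 in edgeR), and Tcfl5 had 109 and 83.3 CPM (-0.38, adjusted p = 0.925 in edgeR). Without Mael+/- library 1 these became 0.13 for Mybl1 and -0.12 for Tcfl5. In footprints Tcfl5 was at -0.51, and at -0.42 without library 1, and Mybl1 was at -0.11 and 0.20. Btbd18, which promotes transcription of pachytene piRNA genes, was at -0.08. None of these genes was called.

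Among the processing enzymes, Mov10l1, the helicase that feeds precursors to the pathway, was at -0.45 in RNA and -0.52 in footprints, and at -0.20 in both without Mael+/- library 1. The vasa helicase Ddx4 was at -0.32 and -0.26, and at -0.02 and 0.15 without that library. Pld6, the nuclease that cuts precursors, was at -0.40 in RNA (-0.17 without library 1), while Pnldc1, which trims piRNA 3′ ends, was at 0.03 (-0.03 without it) and Henmt1, which methylates them, at -0.06 (-0.17 without it). None of the 6 was called.

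Tudor proteins dock onto methylated arginines of PIWI proteins in germ granules. Tdrd6, a chromatoid body protein of late spermatocytes and spermatids, had the largest estimates of the 9, -2.74 in RNA (SE 0.72, adjusted p = 0.582 in edgeR) and -2.43 in footprints, from 5.37 CPM in Mael+/- and 0.807 CPM in Mael-/- RNA. Like Piwil1 it was high in Mael+/- extract 1, at 6.07 times the other Mael+/- extracts in RNA, and without library 1 it was at -1.33 in RNA and -0.66 in footprints. Tdrd9, a helicase that works with MIWI2, was at -0.51 in RNA and -0.53 in footprints (-0.33 and -0.28 without library 1), and Tdrd7 was at -0.02 and -0.07 (0.01 and 0.04). The 9 RNA estimates were all below 0, and 5 of them were without library 1.

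The remaining cofactors had estimates in RNA and footprints of -0.09 and -0.37 for Asz1, -0.23 and -0.37 for Gtsf1, -0.18 and -0.25 for Gpat2, and -0.05 and -0.05 for the co-chaperone Fkbp6. Without Mael+/- library 1 these were 0.10 and -0.19 for Asz1, -0.01 and -0.16 for Gtsf1, and -0.05 and -0.06 for Gpat2. Of the genes of nuclear transposon silencing, Tex15 was at -0.05, Morc1 at 0.11 and Dnmt3l at 0.13 in RNA, and without that library at 0.17, -0.01 and 0.04. Apart from Mael, none of the cofactors or silencing genes was called.

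**Figure D4:**
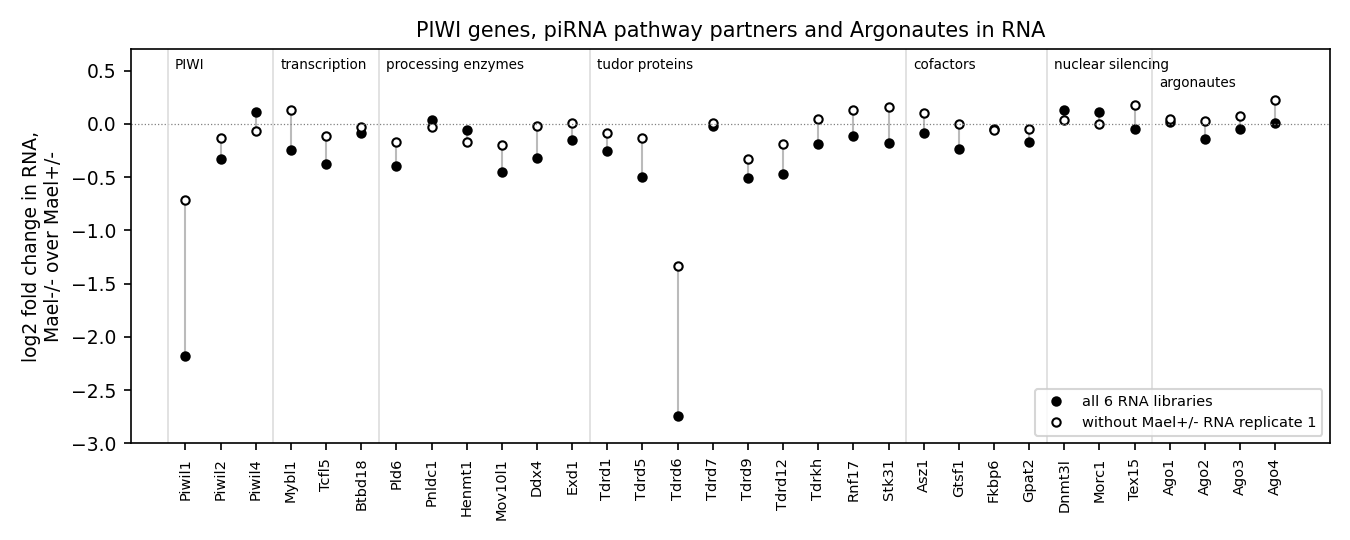
Log2 fold change in RNA (Mael-/- over Mael+/-, edgeR) of the PIWI genes, the piRNA pathway partners by role and the Argonaute genes, with all 6 RNA libraries (filled) and without Mael+/- replicate 1 (open). Mael itself is left out. Piwil1 (-2.18, then -0.71) and Tdrd6 (-2.74, then -1.33) stand below the others in both settings.

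The Argonaute genes Ago1 to Ago4, the relatives that carry microRNAs, gave a comparison within the protein family. Their log2 fold changes lay between -0.14 and 0.01 for RNA and between -0.10 and 0.12 for footprints, and 0 of 4 were called. In RNA per kb of exon, the 4 together had 17.7 to 22.7 CPM per kb over all libraries, and Piwil2 alone had 44.6 to 71.1. In footprints per kb of coding sequence they had 58.1 to 72.3 together, and Piwil2 alone had 95.2 to 163. Piwil1 in Mael-/- RNA, at 1.75 CPM per kb, was below each Argonaute, the lowest of which was Ago2 at 3.54, and it was below each of them in Mael+/- RNA libraries 2 and 3 as well.

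Genes that resembled each PIWI gene most were ranked by Pearson r of log2 CPM, centred within the assay, over the 12 libraries. These libraries share extracts in pairs, and r is a description only. For Piwil1 the 5 most alike were 2610020H08Rik (r = 0.994), Pdha2, the testis form of a pyruvate dehydrogenase subunit (0.993), Smim24 (0.991), Clgn, a chaperone of sperm surface proteins (0.991), and Cntd1, needed for meiotic crossovers (0.989). They had r from 0.9002 to 0.972 over the 10 libraries without Mael+/- extract 1. Like Piwil1, all 5 were lower in Mael-/- RNA with all libraries (log2 fold change -2.20 to -0.80). Their r without extract 1 can therefore also restate the separation of the genotypes. In all, 385 of 13447 genes passed r = 0.9 with Piwil1, and 25 did without that extract.

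Piwil2 was most like Exd2 (r = 0.982), the axonemal dynein Dnah17 (0.982), Ccdc113 (0.981), the mitotic kinase Aurka (0.981) and Csnk2a2 (0.979), and without Mael+/- extract 1 these had r from 0.822 to 0.864. Piwil4 was most like Armc6 (0.926), the deacetylase Hdac10 (0.911), Ppm1f (0.906), Pld2 (0.899) and Mafg (0.892). Piwil1 and Piwil2 had r = 0.929 over the 12 libraries and 0.290 without Mael+/- extract 1. Piwil1 and Mybl1 had 0.803 and -0.37, so their likeness rested on that extract. Piwil1 and Mael had 0.696 and 0.901. Since Mael is the mutated gene, its r mostly restates the separation of the genotypes and does not show a shared course beyond it.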

How the data were processed

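The authors deposited 1 table of raw counts per gene, with 6 RNA and 6 footprint columns, each matched by name to 1 library, and 0 columns of no sample. According to the methods and the submitters' processing notes, footprint reads were clipped, their 5-base molecular identifiers were trimmed, and reads of ribosomal DNA were removed with Bowtie 1.2.2. Reads were aligned to mm10 with STAR 2.6.0c and counted with featureCounts (Subread 1.6.4), on entire transcripts in the RNA libraries and on coding sequence alone in the footprint libraries. The annotation, the strand setting and any collapsing of identifiers are not given in the sources used here, so errors cover the spread between libraries only. The deposited comparison files, which hold the fold changes and p-values of DESeq2 1.24.0, were not used.

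Counts were tested with edgeR 4.0.16 (R 4.3.3): TMM factors and filterByExpr within the assay, the quasi-likelihood F-test and Benjamini-Hochberg adjustment over all genes tested. Translation efficiency was the interaction of genotype and assay. Lengths came from GENCODE M21, matched for 19510 of 20620 genes. Ratios of 2 members used a pseudocount of 0.5, and likeness used a prior count of 2. Alternatives were DESeq2 1.42.0, other size factors and filters, replicate blocks and left-out libraries. The scripts were tested on simulated data. Members and gene lists were chosen with earlier results of these data known. Named genes were the members, Mael, the piRNA partners and Argonautes, and the 5 genes most like each member. Of each other list they were those called or up to 4 of the highest in RNA. Ldhc, Adam2, Ovol1, Prm1 and Tnp2 were named after their values were seen. RNA and footprints of 1 extract deviated together (correlation across 13448 genes 0.224 to 0.746), and the methods give them as aliquots of 1 lysate. Repeat rows of the table were left out.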

Additional observations from a re-analysis of the deposited data

How the results depend on the processing

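The changes of Piwil1, Piwil2 and Piwil4 in RNA, footprints and translation efficiency were recomputed under each alternative, which gave 135 values. No value passed an adjusted p of 0.05, 112 kept their direction and 23 turned it. Piwil1 kept its sign in RNA (-2.61 to -0.71 over left-out libraries) and footprints (-2.64 to -0.82), as did Piwil2 (-0.47 to -0.13 and -0.44 to -0.09). Over left-out libraries or extracts the signs of the changes in translation efficiency turned for Piwil1 (-1.51 to 1.37), Piwil2 (-0.18 to 0.24) and Piwil4 (-0.25 to 0.15). Those of Piwil4 in RNA (-0.064 to 0.34) and footprints (-0.0097 to 0.20) turned too. The Piwil1 extremes came from leaving out only the RNA library (-1.51) or only the footprint library (1.37) of Mael+/- extract 1, which unpairs that extract. With whole extracts left out, Piwil1 ran from -0.18 to 0.11. Without Mael+/- library 1, chosen after seeing the data, list medians turned to 0.060 for Argonautes, -0.021 for Leydig cell markers and 0.17 for early prophase markers in RNA, to 0.10 for the latter in footprints, and to 0.00434 and -0.036 for Sertoli cell markers in RNA and footprints; the cause was not tested.

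Genes called in RNA numbered 17, against 58 with DESeq2, 4 with a mean of at least 50 counts and 2 to 59 over left-out libraries, the highest without Mael+/- library 1 and the lowest without Mael-/- library 1. In footprints they numbered 8, against 21, 1 and 2 to 17, the highest without Mael+/- library 1 and the lowest without Mael+/- library 3. With the replicate number as a block across genotypes, 48 genes were called in RNA and 22 in footprints. That block gave Piwil1 -1.58 in RNA (adjusted p = 0.228 in edgeR) and -1.77 in footprints (adjusted p = 0.356). The labels link same-numbered libraries of the 2 genotypes by number alone and do not say whether they share more. Correlations of their deviations ran from 0.00138 to 0.207. Those of RNA libraries 1 (0.207) and 3 (0.127) and footprint libraries 2 (0.188) passed the limit of 0.1 set for pairing. Pairing the libraries of an extract changed no call. The lowest count of a member, 92 for Piwil1 in a Mael-/- footprint library, limits its precision there.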
